A study of Mus musculus with 23 samples.

Results

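The 10 genes described here encode proteins that prepare the sperm surface for fertilization: the chaperone genes Clgn, Calr3 and Pdilt, the ADAM genes Adam1a, Adam2, Adam3 and Adam5, the Ly6-family genes Tex101 and Ly6k, and the acrosome gene Zpbp. They were chosen by name, as genes of sperm surface maturation, with earlier results of these data known. All 10 were found among the 19661 genes of the array, each through 1 probe set. Of these, 9 passed the filter on dim genes and were tested. Pdilt did not pass it.

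ADAM proteins are membrane proteins with a disintegrin and a metalloprotease domain, and several are made in spermatocytes and spermatids and carried to the sperm surface. Calmegin, the product of Clgn, is a testis-specific relative of calnexin in the endoplasmic reticulum and is needed for ADAM1A and ADAM2 to pair and for ADAM3 to reach the surface. Male mice without calmegin, calsperin (Calr3), PDILT, ADAM3, TEX101 or LY6K make sperm that fail to enter the oviduct or to bind the zona pellucida.

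The samples were spermatogenic cells isolated from testes of mice aged 14.5 days, when the most advanced germ cells are spermatocytes of meiotic prophase. Each of the 23 arrays measured a pool of 4 testes. The 7 genotypes were the inbred strains PWD, of Mus musculus musculus origin, and B6, mainly of Mus musculus domesticus origin (3 arrays each), their reciprocal hybrids PWDxB6 and B6xPWD (3 each), the hybrid PWDxPWK of strains of musculus origin (2, after the submitters left 1 out as an outlier), and the reciprocal hybrids B6xBALB/C (6) and BALB/CxB6 (3) of laboratory strains. The mother's strain is written first by convention. PWDxB6 males are known to be sterile with meiotic arrest. Whether the pools of a genotype stem from different litters is not in the labels. The tests therefore weigh differences against the spread from pool to pool, which may be partly technical.

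Array medians ran from 6.13 to 6.28 on the log2 scale. Of the marker lists, 18 of 20 genes of pachytene spermatocytes, 19 of 20 of synapsis and recombination and 15 of 16 of spermatogonia passed the filter on dim genes, against 9 of 14 of spermatids. All 11 Sertoli markers on the array and all 11 peritubular markers passed as well, so markers of somatic cells were measured above the filter beside those of germ cells. The sample titles name juvenile testes, and the share of somatic cells was not measured. In B6xBALB/C, replicate 6 stood apart from replicates 1 to 5. Its mean over the pachytene list, relative to all arrays, was -0.41, against 0.27 to 0.68 in the others, and its Leydig list mean was the highest of the 6 at 0.63. In these bulk samples, fewer cells of a type and less RNA per cell cannot be told apart.

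All 10 genes are autosomal, so each reciprocal hybrid carries 1 copy from each parent strain. In GRCm38.p6 coordinates Clgn lies on chr8:83389790-83428552, Calr3 on chr8:72424176-72443819, Pdilt on chr7:119486586-119529036, Adam1a on chr5:121518604-121521695, Adam2 on chr14:66027322-66077851, Adam3 on chr8:24677232-24726377, Adam5 on chr8:24727093-24824369, Tex101 on chr7:24668012-24672050, Ly6k on chr15:74796874-74799968 and Zpbp on chr11:11279624-11464223. Adam3 and Adam5 are neighbours, with 715 bases between them. Probe sets were designed on a reference close to B6. Whether mismatches with PWD sequence lower its signal was not tested.

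Promoter windows were held for 5 of the 10 genes in a RefSeq table of GRCm38.p6: Calr3, Pdilt, Adam1a, Tex101 and Zpbp. Those of Tex101 and Adam1a are shown because they belong to the genes that passed a test below and have an entry. Each is the 250 bases before the start site, on the minus strand, written 5′ to 3′ with motif matches in capitals.
Tex101, chr7:24672051-24672300: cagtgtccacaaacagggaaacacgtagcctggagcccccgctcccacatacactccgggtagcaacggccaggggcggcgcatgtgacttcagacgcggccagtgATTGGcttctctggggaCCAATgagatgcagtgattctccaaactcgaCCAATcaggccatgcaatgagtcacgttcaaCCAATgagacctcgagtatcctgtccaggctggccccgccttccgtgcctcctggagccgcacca
Adam1a, chr5:121521696-121521945: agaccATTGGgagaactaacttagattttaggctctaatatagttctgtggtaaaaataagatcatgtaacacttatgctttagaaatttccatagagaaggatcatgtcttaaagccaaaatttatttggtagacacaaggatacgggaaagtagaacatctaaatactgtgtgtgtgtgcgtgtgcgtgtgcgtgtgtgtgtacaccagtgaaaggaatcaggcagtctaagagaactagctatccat
Motifs were searched on both strands: the CCAAT box (CCAAT), the MYB core (CAGTTG), the E-box (CACGTG), the CRE half-site (TGACG) and the TATA box (TATAAA). Tex101 had 4 CCAAT matches, at -144, -127, -96 and -65 from the start site, and none of the other motifs. Of 32851 promoter windows of the same length, 0.84% held as many CCAAT boxes and 33.8% held at least 1. The Adam1a window held 1 CCAAT match, at -245, and none of the others. The matches are a description of letters and say nothing of binding.

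The chaperone gene Clgn had the widest range among the 3 chaperones. In PWD its log2 level was 7.59, 7.84 and 7.62, and in B6 it was 9.70, 9.65 and 10.13. In PWDxB6 it was 7.98, 8.82 and 8.07, and in B6xPWD 9.56, 9.97 and 9.26. The 3 PWD arrays were below all 20 others, and the reciprocal hybrids of PWD and B6 did not overlap. Clgn was 8.27 and 8.55 in PWDxPWK and 8.85, 8.57 and 8.65 in BALB/CxB6. In B6xBALB/C it ran from 8.21 to 10.57 with a median of 10.37. The order of the group means was B6xBALB/C (9.92), B6 (9.83), B6xPWD (9.60), BALB/CxB6 (8.69), PWDxPWK (8.41), PWDxB6 (8.29) and PWD (7.68). The first 3 lay within their spread of one another, as did PWDxPWK and PWDxB6, while the gaps of 0.90 below B6xPWD, 0.28 below BALB/CxB6 and 0.61 above PWD exceeded it.

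Calr3, whose product calsperin is a testis calreticulin, varied little. Its group means ran from 5.91 in BALB/CxB6 to 6.23 in B6xPWD, and each neighbour in that order lay within the spread. The range over all 23 arrays was 0.63, below the median range of 0.76 over the 14745 genes tested. Pdilt, a testis protein disulfide isomerase relative, ran from 3.71 to 4.49 over all arrays, below the filter at 5.125, and was not tested.

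**Figure D1:**
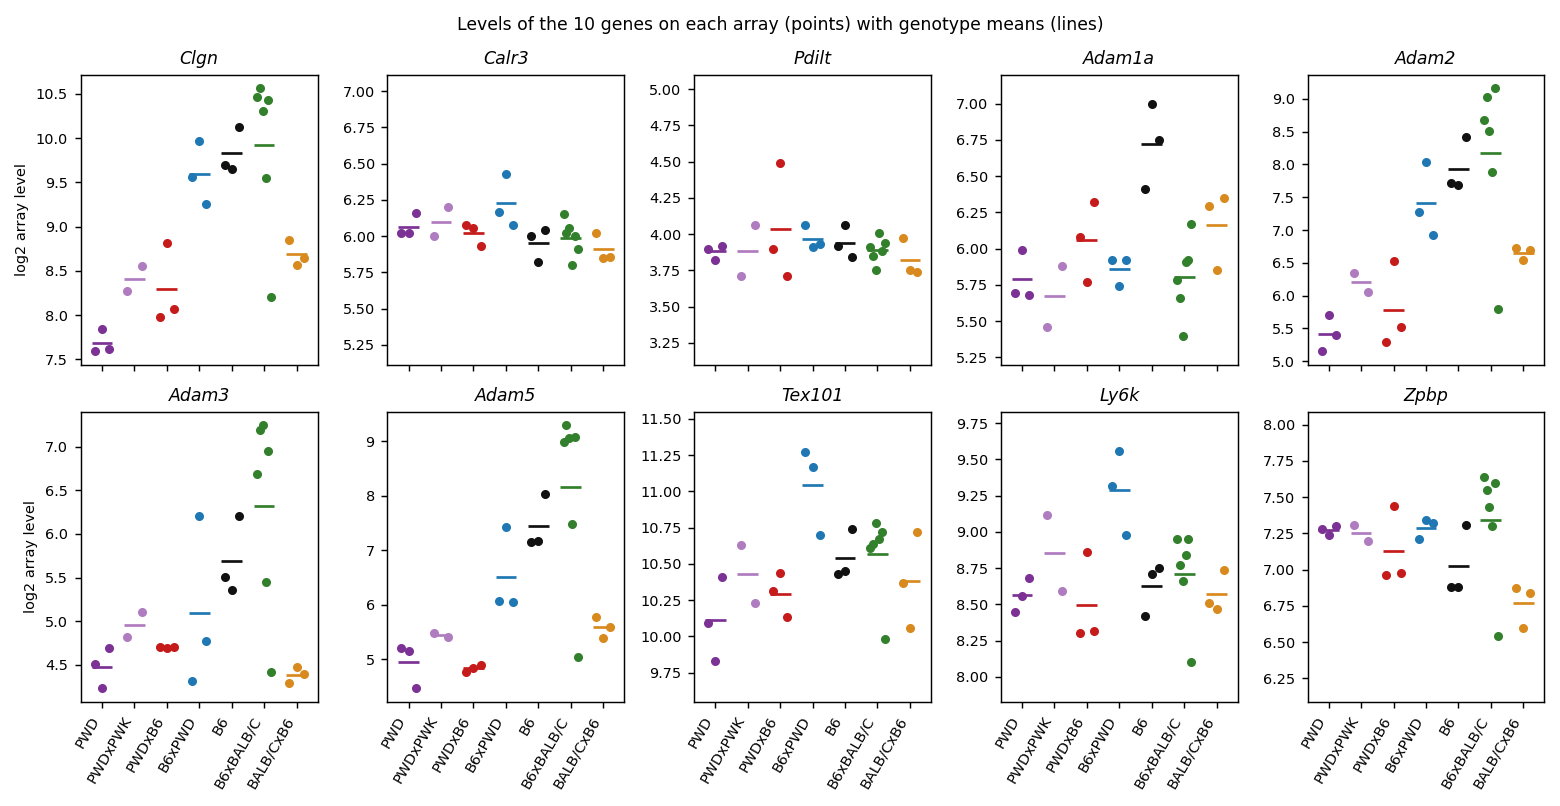
Log2 level of each of the 10 genes (panels, vertical axis) in each array (points) by genotype (horizontal axis), with bars at the group means. Clgn, Adam2, Adam3 and Adam5 are high in most B6xBALB/C arrays and low in PWD, and Adam1a is highest in B6.

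Adam2, Adam3 and Adam5 varied most among the ADAM genes. The Adam2 product, fertilin beta, is the partner of the ADAM1 proteins. Adam2 was 5.15, 5.71 and 5.40 in PWD and 7.71, 7.68 and 8.42 in B6. It was 5.30, 6.53 and 5.52 in PWDxB6 and 7.28, 8.03 and 6.92 in B6xPWD. Neither pair of groups overlapped. Adam2 was 6.34 and 6.06 in PWDxPWK and 6.72, 6.54 and 6.69 in BALB/CxB6, and in B6xBALB/C it ran from 5.79 to 9.17 with a median of 8.60. Its range over all arrays, 4.02, was the 12th widest of the 14745 genes tested.

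Adam5, whose product joins ADAM complexes on sperm, had the third widest range of all genes tested, 4.84 or 28.6-fold. It was 5.21, 5.15 and 4.46 in PWD, 7.15, 7.17 and 8.02 in B6, 4.76, 4.83 and 4.89 in PWDxB6 and 6.07, 7.42 and 6.04 in B6xPWD. PWDxB6 lay with PWD, while B6xPWD lay above both and overlapped B6. For Adam5, 5 arrays lay below the filter of 5.125, among them every PWDxB6 array. The order of its low groups and its folds are therefore uncertain. In B6xBALB/C it ran from 5.03 to 9.30 with a median of 9.02, against 5.77, 5.38 and 5.59 in BALB/CxB6 and 5.47 and 5.41 in PWDxPWK. Its neighbour Adam3, the gene of the surface protein cyritestin, stood at 4.51, 4.23 and 4.69 in PWD and at 5.51, 5.36 and 6.21 in B6. In PWDxB6 it was 4.71, 4.69 and 4.70 and in B6xPWD 4.31, 6.21 and 4.77, so 1 B6xPWD array carried most of that group's difference. Adam3 was 4.82 and 5.10 in PWDxPWK, 4.29, 4.47 and 4.39 in BALB/CxB6, and from 4.42 to 7.25 with a median of 6.82 in B6xBALB/C. Its mean over all arrays, 5.26, was just above the filter of 5.125 and passed it only through B6xBALB/C: the mean of the other 17 arrays was 4.88. Of all arrays 14 lay below the filter, among them every array of PWD, PWDxB6, PWDxPWK and BALB/CxB6. Tests of Adam3 that rest on B6xBALB/C are therefore not read as results.

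Adam1a, whose product pairs with ADAM2 in the endoplasmic reticulum, had another order. It was 6.41, 7.0 and 6.75 in B6, above all 20 other arrays, which reached at most 6.35. PWD was at 5.69, 5.99 and 5.68, PWDxB6 at 6.08, 5.77 and 6.32 and B6xPWD at 5.92, 5.74 and 5.92. PWDxPWK was at 5.46 and 5.88, BALB/CxB6 at 6.29, 5.85 and 6.35, and B6xBALB/C ran from 5.40 to 6.17 with a median of 5.84. Below B6, all neighbours in the order of means lay within their spread.

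The GPI-anchored proteins TEX101 and LY6K are partners on germ cells. Tex101 was 10.31, 10.44 and 10.13 in PWDxB6 and 11.27, 11.17 and 10.70 in B6xPWD. It was 10.09, 9.83 and 10.41 in PWD, 10.43, 10.45 and 10.74 in B6, 10.63 and 10.23 in PWDxPWK and 10.37, 10.06 and 10.72 in BALB/CxB6, and ran from 9.98 to 10.78 with a median of 10.66 in B6xBALB/C. B6xPWD held the 2 highest arrays, and 16 of the 20 others lay below all 3 of its arrays. Ly6k was 8.30, 8.86 and 8.32 in PWDxB6 and 9.32, 9.56 and 8.98 in B6xPWD, with 19 of 20 other arrays below the lowest of the latter. It was 8.45, 8.56 and 8.68 in PWD, 8.42, 8.71 and 8.75 in B6, 9.12 and 8.59 in PWDxPWK, 8.51, 8.47 and 8.74 in BALB/CxB6, and 8.10 to 8.95 with a median of 8.81 in B6xBALB/C. In the order of means B6xPWD came first for both genes, by 0.48 for Tex101 and 0.44 for Ly6k, beyond the spread though single arrays overlapped, and the other 6 genotypes lay within their spread of their neighbours. Zpbp, of an acrosomal matrix protein that binds the zona pellucida, had group means from 6.77 (BALB/CxB6) to 7.34 (B6xBALB/C) and differed less than the ADAM genes.

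**Figure D2:**
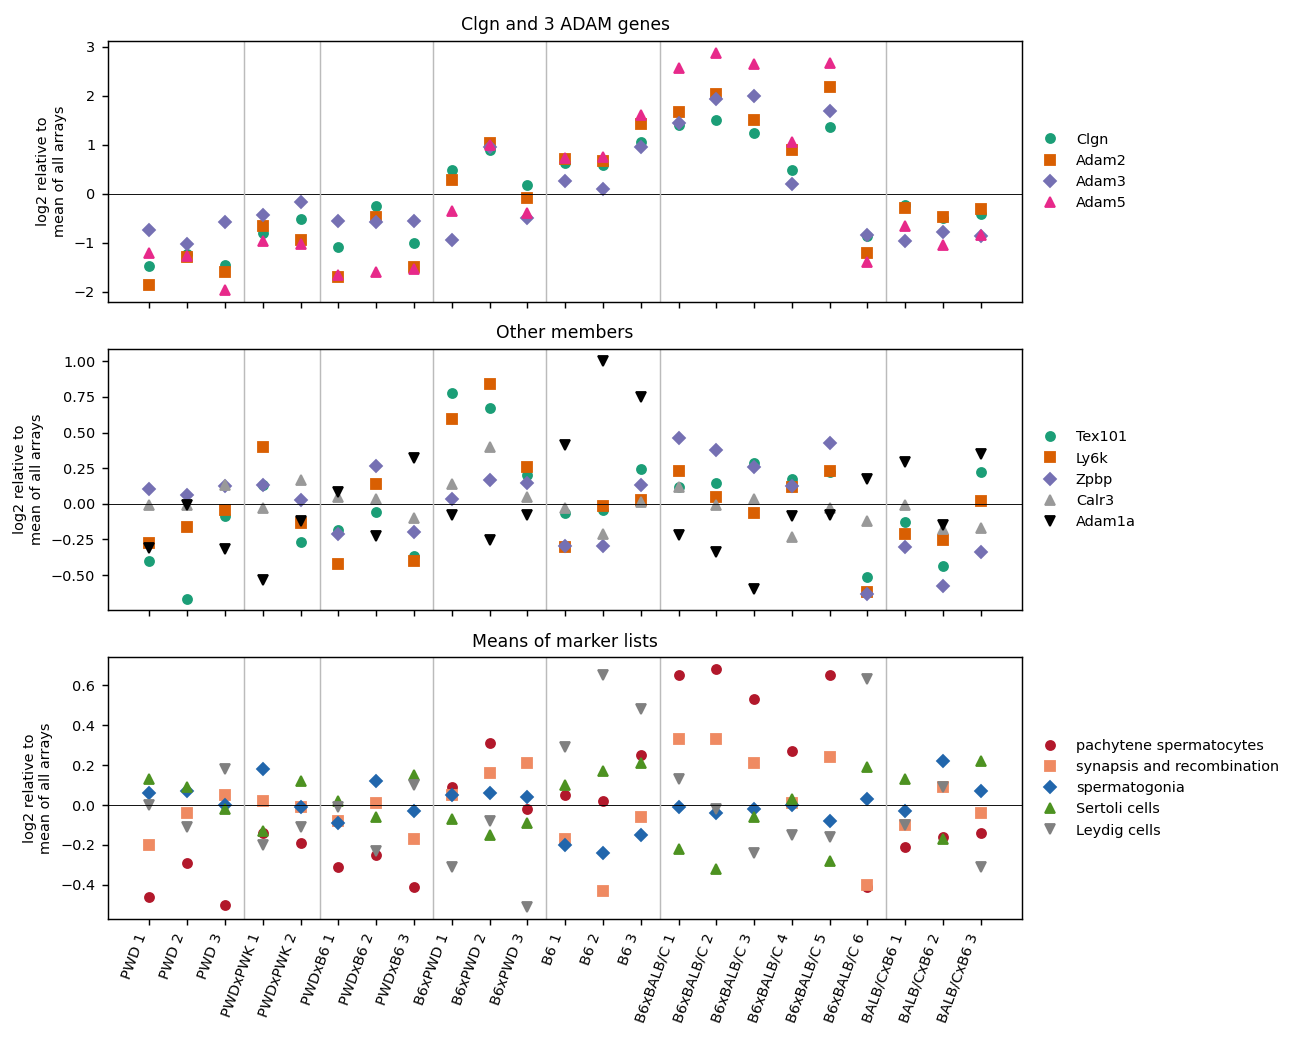
Log2 level relative to the mean over all 23 arrays (vertical axes) in each array (horizontal axis, grouped by genotype), as points. The top panel shows Clgn, Adam2, Adam3 and Adam5, and the middle panel Tex101, Ly6k, Zpbp, Calr3 and Adam1a. The bottom panel shows means of the pachytene, synapsis and recombination, spermatogonia, Sertoli and Leydig lists. Pdilt is not shown. Clgn, Adam2, Adam3 and Adam5 share blocks of high and low arrays, and B6xBALB/C replicate 6 is low for these genes beside its 5 group mates.

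Over all 7 genotypes, 6 of the 8 tested genes other than Adam3 differed by limma's moderated F test, against 33.8% of all genes tested. They were Clgn (adjusted p = 0.000194), Adam2 (0.000573), Adam5 (0.000656), Adam1a (0.00189), Tex101 (0.021) and Ly6k (0.033). Zpbp (0.134) and Calr3 (0.205) did not pass. Differences below are on the log2 scale with the model's standard error (SE), limma's adjusted p and, where given, a 95% interval.

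The first comparison asks how the reciprocal hybrids of PWD and B6, of which PWDxB6 is known as sterile, differ. Ly6k and Tex101 were lower in PWDxB6 than in B6xPWD, and 2.83% of all genes were called in this comparison, 1.51% as lower. Ly6k fell by 0.79 (1.73-fold, SE 0.20, interval -1.20 to -0.39, adjusted p = 0.0328) and Tex101 fell by 0.75 (1.68-fold, SE 0.20, interval -1.16 to -0.34, adjusted p = 0.0439). Clgn, Adam2 and Adam5 had larger differences with wider errors and did not pass, at -1.31 (2.47-fold, SE 0.39, adjusted p = 0.069), -1.63 (3.09-fold, SE 0.54, adjusted p = 0.0956) and -1.69 (3.22-fold, SE 0.69, adjusted p = 0.167). The 2 groups did not overlap for 6 of 9 genes, the 5 named above and Calr3 (-0.20), against 24% of all genes tested. Adam3 (-0.40, and 0.16 without B6xPWD replicate 2), Zpbp (-0.16) and Adam1a (0.20) overlapped. The median difference of the 9 genes was -0.75, against 0.03 over all genes tested.

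No gene of the 14 for folding in the endoplasmic reticulum, the 4 tested of 17 other testis ADAM genes, the 10 tested broadly expressed ADAM genes or the 18 tested other sperm maturation genes passed, with medians of -0.05, -0.18, 0.13 and -0.05. All 4 testis ADAM genes were on the lower side in PWDxB6, as were 18 of 19 genes of synapsis and recombination, with a median of -0.21 and none called. The pachytene list had 16 of its 18 genes on that side with a median of -0.30, with none called, and in PWDxB6 its mean was -0.32 ± 0.08 (SD, n = 3), against 0.13 ± 0.17 (SD, n = 3) for B6xPWD. The peritubular list had 2 genes called higher, Des (0.55) and Cnn1 (0.56), and a median of 0.24. With the pachytene list mean as a covariate the differences were -0.45 for Ly6k (adjusted p = 0.197) and -0.46 for Tex101 (adjusted p = 0.246), and neither passed. With only the groups compared in the fit, that of Ly6k ended too (adjusted p = 0.064). Both calls also ended without PWDxB6 replicate 1 or 3 or B6xPWD replicate 1 or 2, with adjusted p up to 0.169 and differences between -0.64 and -0.78. Without B6xBALB/C replicate 6, which enters only through the shared spread, Clgn (adjusted p = 0.00194), Adam2 (0.00354) and Adam5 (0.00922) also passed. Over all genes, 851 were called in that fit, against 418 with the array kept.

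Against the mean of the parents, the mid-parent, PWDxB6 had no tested gene called, while 0.671% of all genes were, and 1 had an unadjusted p under 0.05, as 12% of all genes had. That was Adam5, at -1.37 (SE 0.60, adjusted p = 0.365), which passed without B6xBALB/C replicate 6 (adjusted p = 0.0265), where 162 genes were called. Adam2 stood at -0.90 and Clgn at -0.46. In B6xPWD, Tex101 and Ly6k were higher than the mid-parent, by 0.72 (adjusted p = 0.0113, SE 0.17) and 0.70 (adjusted p = 0.0124, SE 0.17), where 14.5% of all genes were called and 7.79% as higher. Ly6k was above every parental array in all 3 B6xPWD arrays. Clgn was at 0.84 (SE 0.34, adjusted p = 0.0956) and passed without B6xBALB/C replicate 6 (adjusted p = 0.00648), where 2621 genes were called. Without B6xPWD replicate 2 neither call held (Tex101 0.66, adjusted p = 0.0741, Ly6k 0.56, adjusted p = 0.101), and without replicate 1 that of Tex101 ended (0.61, adjusted p = 0.0552). Of the endoplasmic reticulum folding genes, 4 of 14 were higher, among them the disulfide isomerase gene Pdia6 (0.48) and the oxidase gene Ero1a (0.44). Of the somatic markers, 3 of 11 Sertoli, 2 of 5 Leydig, 4 of 11 peritubular and 4 of 8 endothelial genes were lower. The pachytene list had 16 of 18 genes on the higher side and 3 called, and the synapsis list 18 of 19 with 4 called. With the pachytene mean as a covariate Tex101 (0.54, adjusted p = 0.0377) and Ly6k (0.48, adjusted p = 0.0366) still passed. Both comparisons share the parental arrays. What part the somatic markers have in the differences of Tex101 and Ly6k was not tested.

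**Figure D3:**
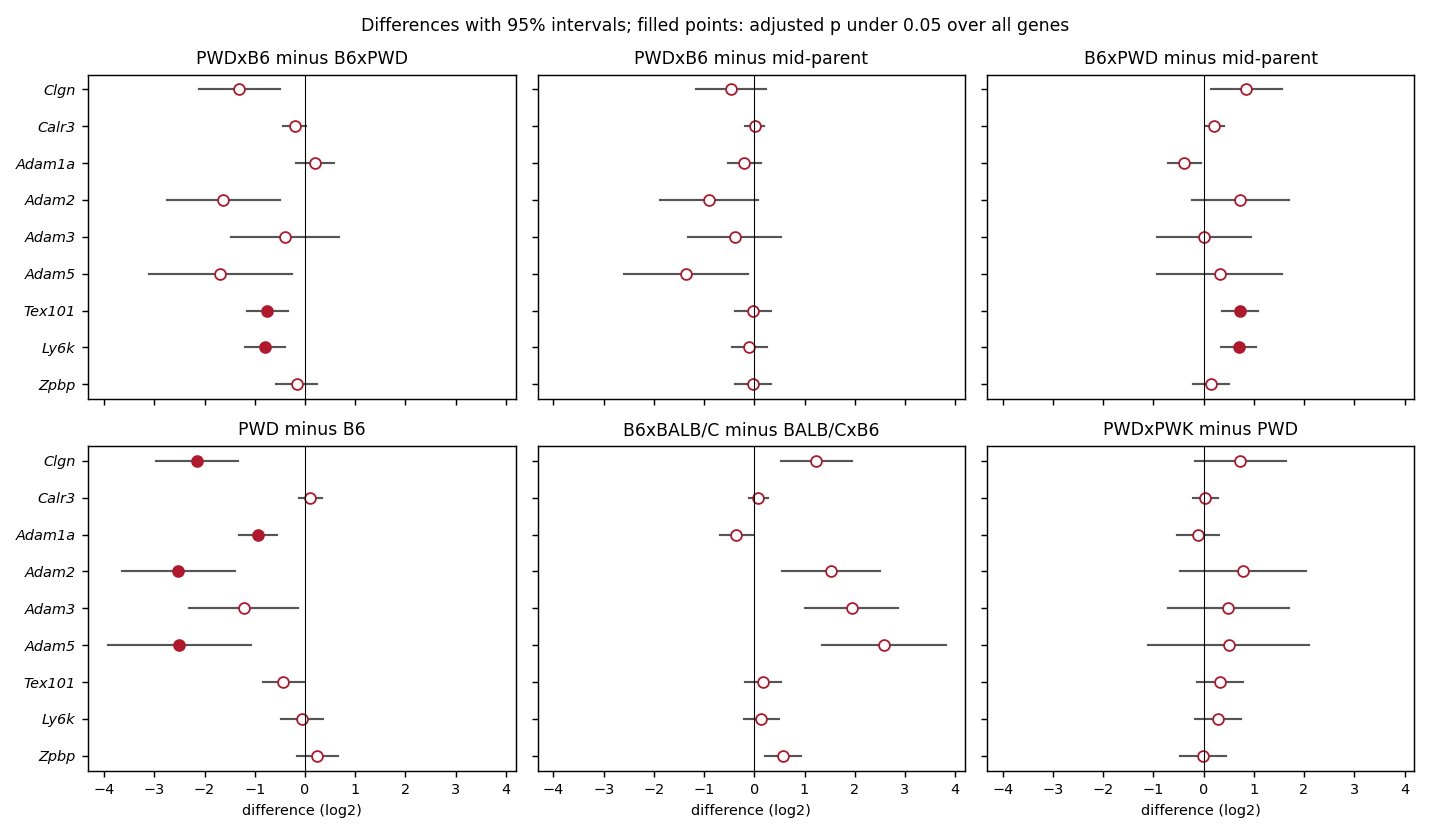
Differences of the 9 tested genes in the named comparisons (log2, horizontal axis) with 95% intervals, filled where the adjusted p was under 0.05. Clgn, Adam1a, Adam2 and Adam5 are filled in PWD against B6, and Tex101 and Ly6k in the comparisons of B6xPWD.

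Between the parent strains, Clgn, Adam2, Adam5 and Adam1a were lower in PWD than in B6, a comparison in which 18.4% of all genes were called and 8.04% as lower. Clgn fell by 2.14 (4.42-fold, SE 0.39, adjusted p = 0.000495), Adam2 fell by 2.52 (5.73-fold, SE 0.54, adjusted p = 0.00231), Adam5 fell by 2.50 (5.67-fold, SE 0.69, adjusted p = 0.0136) and Adam1a fell by 0.93 (1.91-fold, SE 0.18, adjusted p = 0.000961). Adam3 (-1.22, SE 0.52, adjusted p = 0.108) and Tex101 (-0.43, adjusted p = 0.142) did not pass, though their groups did not overlap. In all, 6 of the 9 genes did not overlap, or 5 of the 8 without Adam3, against 38% of all genes. Without B6xBALB/C replicate 6 the Adam3 difference had an adjusted p of 0.0227. That value is not read as a result, since Adam3 passed the filter only through B6xBALB/C. Ly6k (-0.06), Calr3 (0.11) and Zpbp (0.25) overlapped. The Adam5 call ended without PWD replicate 3 (adjusted p = 0.0586) or B6 replicate 3 (adjusted p = 0.0628), and with the pachytene mean as a covariate it was -0.50 (adjusted p = 0.123), while Clgn (-1.03, adjusted p = 7.92e-05), Adam2 (-0.96, adjusted p = 0.00144) and Adam1a (-1.15, adjusted p = 0.000191) still passed. In that fit Zpbp was called higher in PWD (0.74, adjusted p = 0.000416). Among the other testis ADAM genes, 2 of 4 were lower in PWD, Adam32 (-1.72) and Adam4 (-0.80), and of the other sperm maturation genes 3 of 18, Pmis2 (-1.40), Ace (-0.61) and Spaca6 (-0.74). The folding genes had 3 of 14 lower, Ero1b (-0.96), Canx (-0.42) and Uggt1 (-0.32). The pachytene list mean was -0.42 ± 0.11 (SD, n = 3) in PWD and 0.11 ± 0.13 (SD, n = 3) in B6, and B6 also had a higher Leydig list mean, 0.47 ± 0.18 (SD, n = 3) against 0.03 ± 0.15 (SD, n = 3). Macrophage markers were lower in PWD for 4 of 6 genes, with list means of -0.20 ± 0.10 (SD, n = 3) in PWD and 0.43 ± 0.17 (SD, n = 3) in B6. Of the spermatogonia list 5 of 15 genes were higher in PWD and 1 lower, and of the synapsis list 4 of 19 higher and 1 lower. Their part in the differences between the strains was not tested.

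In the reciprocal hybrids of B6 and BALB/C, none of the 9 tested genes passed, against 0.441% of all genes. Leaving out Adam3, 5 of 8 had an unadjusted p under 0.05, which 14.2% of all genes had. Adam5 was at 2.58 (5.96-fold, SE 0.60, adjusted p = 0.0518), Adam2 at 1.53 (SE 0.47, adjusted p = 0.105), Clgn at 1.23 (SE 0.34, adjusted p = 0.0744), Zpbp at 0.57 (SE 0.17, adjusted p = 0.0979) and Adam1a at -0.36 (adjusted p = 0.299), B6xBALB/C minus BALB/CxB6. The Adam3 difference was 1.94, given as a description since B6xBALB/C brought that gene past the filter. Replicate 6 of B6xBALB/C lay below all 3 BALB/CxB6 arrays for Clgn, Adam2 and Adam5 and among them for Adam3. Without it 4 of these 8 genes were called, Adam5 (3.20, adjusted p = 1.74e-06), Clgn (1.57, adjusted p = 1.39e-05), Adam2 (2.01, adjusted p = 2.33e-05) and Zpbp (0.73, adjusted p = 0.000147), among 1011 genes in all. Without replicate 4 of B6xBALB/C, or without replicate 2 of B6xPWD, Adam5 passed (adjusted p = 0.0382 and 0.0469), among 218 and 81 genes called. The pachytene list had 17 of 18 genes higher in B6xBALB/C and a median of 0.39, with none called. With its mean as a covariate, Adam5 was at 0.44.

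The reciprocal difference was then compared between the B6 and PWD cross and the B6 and BALB/C cross, which share no arrays, by an interaction test chosen after the data were seen. The B6 mother's offspring minus the reciprocal gave 1.31 and 1.23 for Clgn (difference 0.07, 95% interval -1.0 to 1.15, adjusted p = 0.955), 1.63 and 1.53 for Adam2 (difference 0.10, interval -1.39 to 1.59, adjusted p = 0.956), 1.69 and 2.58 for Adam5 (difference -0.89, adjusted p = 0.633), 0.75 and 0.18 for Tex101 (difference 0.57, interval 0.02 to 1.11, adjusted p = 0.245) and 0.79 and 0.14 for Ly6k (difference 0.65, interval 0.11 to 1.2, adjusted p = 0.171). For Adam3 they were 0.40 and 1.94 (difference -1.54, interval -2.97 to -0.12), the largest gap of the 9 and one that rests on B6xBALB/C. The intervals of Tex101, Ly6k and Adam3 leave out 0 before adjustment. No gene of the 9 passed this test, in which 2.68% of all genes did, and the wide intervals leave unequal differences of a unit or more possible for Clgn and Adam2. PWDxPWK minus PWD, of strains of the same subspecies, gave 0 calls among the 9 genes and 0 unadjusted p under 0.05, against 0.00678% of all genes called and 2.84% under that unadjusted p, with Clgn at 0.73 (SE 0.44) and Adam2 at 0.78. The 2 groups did not overlap for 4 of the 9 genes, or 3 of the 8 without Adam3, against 21.5% of all genes.

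**Figure D4:**
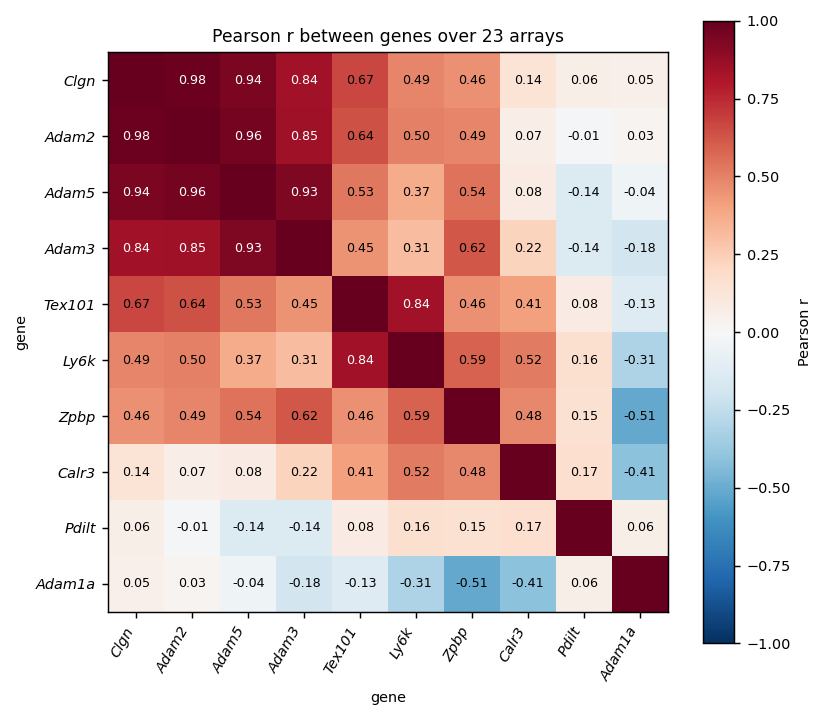
Pearson correlation over the 23 arrays between the 10 genes, as a grid with blank diagonal. Clgn, Adam2, Adam3 and Adam5 form a high block, and Adam1a and Calr3 stand apart from it.

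Across the 23 arrays, Clgn and Adam2 had r = 0.98 (Spearman's rho = 0.98, n = 23), Adam2 and Adam5 0.96, Clgn and Adam5 0.94, and the neighbours Adam3 and Adam5 0.93 with a rho of 0.73. Tex101 and Ly6k had r = 0.84. Clgn and Adam1a had r = 0.05 and Adam1a and Zpbp -0.51. These points share genotype and cell composition, and the values are descriptions. With each genotype's mean removed, Clgn and Adam2 still had r = 0.97, and 0.92 without the B6xBALB/C arrays. Other pairs fell further when those arrays were also left out: Clgn and Adam5 had r = 0.61, Adam2 and Adam5 0.63, Adam3 and Adam5 0.75, Tex101 and Ly6k 0.71 and Clgn and Tex101, at 0.67 over all arrays, 0.30. For Clgn and Zpbp r was 0.46 over all arrays and 0.91 with genotype means removed. It was 0.72 when the B6xBALB/C arrays were also left out. The genes most like the mean of the 9 tested members over 23 arrays were Spag6l (r = 0.99), Crisp2 (0.99), Gk2 (0.98), 1700010I14Rik (0.98) and Ankrd36 (0.98). That mean includes Adam3, which passed the filter only through B6xBALB/C. Members were centred but not scaled, so Adam5 (range 4.84), Adam2 (4.02), Adam3 (3.02) and Clgn (2.98) weigh most in it. Calr3 (0.63) weighs little.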

How the data were processed

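Affymetrix Mouse Gene 1.0 ST arrays measured total RNA labelled with biotin, per the labels' protocols. The table deposited by the authors holds log2 values (1.17 to 13.96, base taken from that range) for 25690 probe sets and 23 arrays. How background and normalization were handled, and with which software, was not given in the sources used here. The centring is thus unknown, and signal over background could not be judged. The number of arrays per group limits the precision.

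Of the probe sets, 20777 had 1 gene symbol, 232 several and 4681 none listed in the platform annotation, and the latter were not named. Entrez IDs of 20696 matched GRCm38.p6, and the symbols stayed as they were (0 changed). A gene's brightest probe set stood for it where there was a choice (564 of 19661 genes). The dimmest 25% of genes by mean (below 5.125) were left out, leaving 14745. R 4.3.3 with limma 3.58.1 fitted 7 genotype means to all arrays (16 residual degrees of freedom), and a gene was called where its Benjamini-Hochberg adjusted p, over all genes tested, was under 0.05. Values are mean ± SD over arrays. A list mean is relative to the mean of each gene over all arrays. No array pair correlated above 0.9952, so none was counted as a duplicate.

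The members and lists were chosen with earlier results of these data known. All members are named, of each other list at most 3 called genes with the smallest p per comparison, and the 5 genes most correlated with the mean of the members. The method was tested on simulated data for PWDxB6 against B6xPWD over 14745 genes, where it found 44% of 50 genes changed by 0.5, 95% of 100 by 1 and 98% of 50 by 2. The simulation used genes picked at random and gave each gene the same spread in every group. Its shares may not hold for genes of unequal spread, such as Adam5 (SD 1.67 in B6xBALB/C, 0.06 in PWDxB6). Alternatives were the dim filter, quantile normalization, autosomal centring, probe set means, trended and robust variances, array weights, a replicate block, only the groups compared, a linear mid-parent, parts of B6xBALB/C, the pachytene list mean as a covariate and each array left out.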

Additional observations from a re-analysis of the deposited data

Results flagged for a closer look

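Among the 24 sets of 6 B6xBALB/C values tested by the gap of the highest or lowest array to its neighbour over the range, 5 stood out, all through replicate 6. Tex101 was at 9.98 there, with a gap of 0.78 of the range, Ly6k at 8.10 (0.66) and Zpbp at 6.54 (0.69). The mean of the pachytene list was -0.41 (0.63) and that of the broadly expressed ADAM genes 0.11 (0.76). Adam2 (0.62) came just below the critical value, while Clgn (0.57) and Adam5 (0.57) lay further below it. By chance this test picks out some groups of this size even when no array differs. What sets replicate 6 apart was not tested.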

How the results depend on the processing

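Of 1920 alternative values for the 54 differences, 1772 kept direction and side of the threshold, 79 passed it only under the alternative, 23 lost it, 45 changed sign without a call and 1 reversed. That was Adam5 in B6xPWD minus mid-parent, -0.76 (adjusted p = 0.0143) with the pachytene list mean as a covariate. The calls for Clgn, Adam1a and Adam2 in PWD minus B6 held in all 35 alternatives, and Tex101 in PWDxB6 minus B6xPWD was lost in 11 of 35, including no dim filter (adjusted p = 0.0557) and quantile normalization (0.0758), and without PWD replicate 1, B6xBALB/C replicate 1 or 2 or BALB/CxB6 replicate 1. The Ly6k call there was lost in 6 of 35. Counts of members below include Adam3, which passed the dim filter only through B6xBALB/C.

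Each count of members is followed in brackets by all genes called in the same fit. For PWDxB6 minus B6xPWD, 2 members (418 genes) were called in the main fit. There was 1 with no dim filter (304) and 1 with quantile normalization (396). Array weights gave 8 (4635), only the groups compared 4 (207) and the covariate 0 (119). Replicates 1 to 3 only and no block, chosen after seeing the data, gave 5 (931). Single arrays left out gave 0 to 5, with 0 (54) without PWDxB6 replicate 3 and 5 (851) without B6xBALB/C replicate 6. For PWDxB6 minus mid-parent, 0 (99) became 1 (227) with replicates 1 to 3 only and no block. It was 1 (174) with only the groups compared and 1 (517) with the covariate. Arrays left out gave 0 to 1, with 1 (162) without B6xBALB/C replicate 6. For B6xPWD minus mid-parent, 2 (2135) became 6 (5967) with array weights. It was 4 (2759) with replicates 1 to 3 only and no block and 4 (2240) with only the groups compared. Arrays left out gave 0 to 3, with 0 (389) without B6xPWD replicate 2 and 3 (2621) without B6xBALB/C replicate 6. For PWD minus B6 the main fit gave 4 (2719) and arrays left out 3 to 5, with 5 (3054) without B6xBALB/C replicate 6. For B6xBALB/C minus BALB/CxB6, 0 (65) became 2 (125) with autosomal centring, 2 (86) with trended variance and 6 (1618) with array weights. It was 6 (1275) with replicates 1 to 3 only and no block and 6 (1275) with B6xBALB/C replicates 1 to 3 only. With B6xBALB/C replicates 4 to 6 only it stayed at 0. Arrays left out gave 0 to 5, with 5 (1011) without B6xBALB/C replicate 6. For PWDxPWK minus PWD arrays left out gave 0 to 0. For any of 7 genotypes they gave 5 to 8, with 8 (6064) without B6xBALB/C replicate 6, against 4985 genes called in the main fit.

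Samples share only a replicate number: same-numbered pairs had a median correlation of deviations of 0.01 and others -0.02. With the replicate block over replicates 1 to 3, the members called were 5 (PWDxB6 minus B6xPWD), 2 (PWDxB6 minus mid-parent), 4 (B6xPWD minus mid-parent) and 5 (B6xBALB/C minus BALB/CxB6). Over all genes, these fits called 1044, 239, 2923 and 1311 in that order, against 418, 99, 2135 and 65 in the main fits. The causes of these shifts were not tested. Arrays carry no depth, and the scale of dim probes limits Pdilt, Adam3 and the low groups of Adam5.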
